A study of Mus musculus with 12 samples.

Results

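The 44 protein-coding collagen genes, those with a symbol made of Col, a type number, the letter a and a chain number, were followed in cultured proximal tubule (PT) cells of the mouse with and without TβRII, the type II receptor of TGF-β. They were found by Ensembl identifier among 25514 genes in the counts, of which 21552 were protein-coding. By type they were 11 fibrillar genes (types I, II, III, V, XI, XXIV and XXVII), 8 basement membrane genes (types IV, XV and XVIII) and 25 other genes. A filter on low counts was passed by 25 of them, which were tested: 8 fibrillar, 7 basement membrane and 10 other genes.

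Collagens are secreted proteins whose alpha chains wind around each other into a helix, and the type number names the protein while the chain number names the alpha chain. Fibrillar collagens form the fibres of connective tissue and of scars, whereas collagen IV forms the sheet-like network of basement membranes, on which tubule cells rest. TGF-β, which signals through TβRII, is known as an inducer of collagen genes in many cell types and of fibrosis in the kidney.

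RNA was sequenced in 12 libraries, 3 for each of 4 groups. TβRII flox/flox PT cells (genotype H2ts6;Tgfbr2fl/fl) came from male mice in which Tgfbr2, which encodes TβRII, was floxed. TβRII-/- PT cells were made from such cells in culture by an adenovirus that carries Cre recombinase. All 4 groups carried the Immorto-mouse transgene, a T antigen that is active at a lower temperature and with interferon gamma and keeps cells dividing, and all had been moved to 37 °C. Cells of each genotype were either untreated, in their normal culture medium, or exposed to H2O2, an oxidant, for 24 h in serum-free medium. By the study's general culture methods, cells were also kept without serum for 24 h before H2O2. Interferon gamma was taken away at the move to 37 °C. The study's methods give an age for the mice of its animal experiments and none for those that the cells came from. For culture work in general the methods speak of independent experiments or of biological replicates, without saying which applies to the libraries of a group or whether cells were isolated anew. P-values therefore measure the spread between these libraries, which may in part be technical. Each genotype is a cell line of its own, so an effect of losing TβRII and any further difference between the lines cannot be told apart. The same holds for H2O2 and the serum-free medium.

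The representative transcripts held between 15870144 and 20857609 counts per library. In counts scaled to the mean library (normalized counts), Tgfbr2 ranged from 7562 to 9248 in the untreated TβRII flox/flox libraries and from 6358 to 6782 in the untreated TβRII-/- libraries. With H2O2 these values were 13276 to 13918 and 7115 to 7312. Counts of a whole transcript do not show the loss of a floxed exon, so this is no check of the genotype labels. The study's methods state that the deletion was verified by immunoblotting and by RNA sequencing. Of 12 PT markers, 8 passed the filter, among them Lrp2, Aqp1, Pax8 and Cdh16, whereas Slc34a1, Slc22a6 and Hnf4a had at most 2 counts in any library. Among 8 fibroblast markers, Lum, Thy1 and Meox1 had no count, Fap had at most 1 and Pdgfra at most 4. The other fibroblast markers were dominated by Postn, periostin, a matrix protein that is itself known to respond to TGF-β. Of the 3 fibroblast markers tested, 2 fell between untreated genotypes, whereas Dcn rose (log2 fold change 1.87 ± 0.81 SE; edgeR adjusted p = 0.0432). Of the 8 markers 7, Dcn among them, had under 25 counts in every library. With H2O2 Dcn rose as well (log2 fold change 2.50 ± 0.55 SE; edgeR adjusted p = 0.000165), and 2 fell. The summed level of the fibroblast list lay between 98.3 and 122 in untreated TβRII flox/flox cells and between 2.995 and 3.88 in untreated TβRII-/- cells. With H2O2 it lay between 45.7 and 53.2 and between 1.68 and 1.96. Markers of other cell types also differed between untreated genotypes, each list through 1 or a few genes. The pericyte and smooth muscle list, with Acta2, had a summed level between 9.44 and 10.4 in TβRII flox/flox and between 48.5 and 54.2 in TβRII-/- cells. The podocyte list, with Synpo and Wt1, lay between 30.5 and 32.9 against 6.61 and 7.28, while Nphs1 had no count. Of its 2 tested members 1 fell and 1 was not called. The endothelial list, with Kdr, lay between 1.24 and 1.37 against 4.52 and 5.70, while Pecam1 had at most 1 count. The macrophage list, with Cd68, lay between 5.57 and 6.26 against 9.89 and 10.9, while Adgre1 had no count. The distal nephron list lay between 0.187 and 0.344 against 0.455 and 0.688, and its tested member Scnn1g rose (log2 fold change 1.06; edgeR adjusted p = 0.00376). The summed level of the PT list lay between 537 and 636 against 633 and 697, but of its 8 tested members 6 fell and 1 rose, and their median was -0.96 as a log2 fold change. Ggt1, Cdh6 and Cubn fell by 3.30, 2.17 and 1.24 on the log2 scale, Aqp1 and Lrp2 by 0.68 and 0.65, and Cdh16 rose by 1.06. The part of any of these lists in the collagen results was not tested.

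A level here is the normalized count per kb of transcript per 1000000 counts of a library, so that genes of unequal length can be compared. Values of 3 libraries are given in the order of replicates 1, 2 and 3. In untreated TβRII flox/flox cells collagen mRNA was mostly that of Col4a1, at a mean level of 309 ± 39.2 (SD, n = 3), Col5a2 at 256 ± 31.1, Col4a2 at 201 ± 26.5 and Col18a1 at 185 ± 22.5. In untreated TβRII-/- cells Col18a1 led with 225 ± 12.9, followed by Col4a5 with 56.3 ± 3.61 and Col4a1 with 38.6 ± 2.56. Collagens that define interstitial scar tissue were almost absent in both genotypes. Col1a1, the α1 chain of collagen I, had between 10 and 61 counts in a library, and its partner chain Col1a2 had at most 3. Col3a1, collagen III, had at most 3 counts as well.

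**Figure D1:**
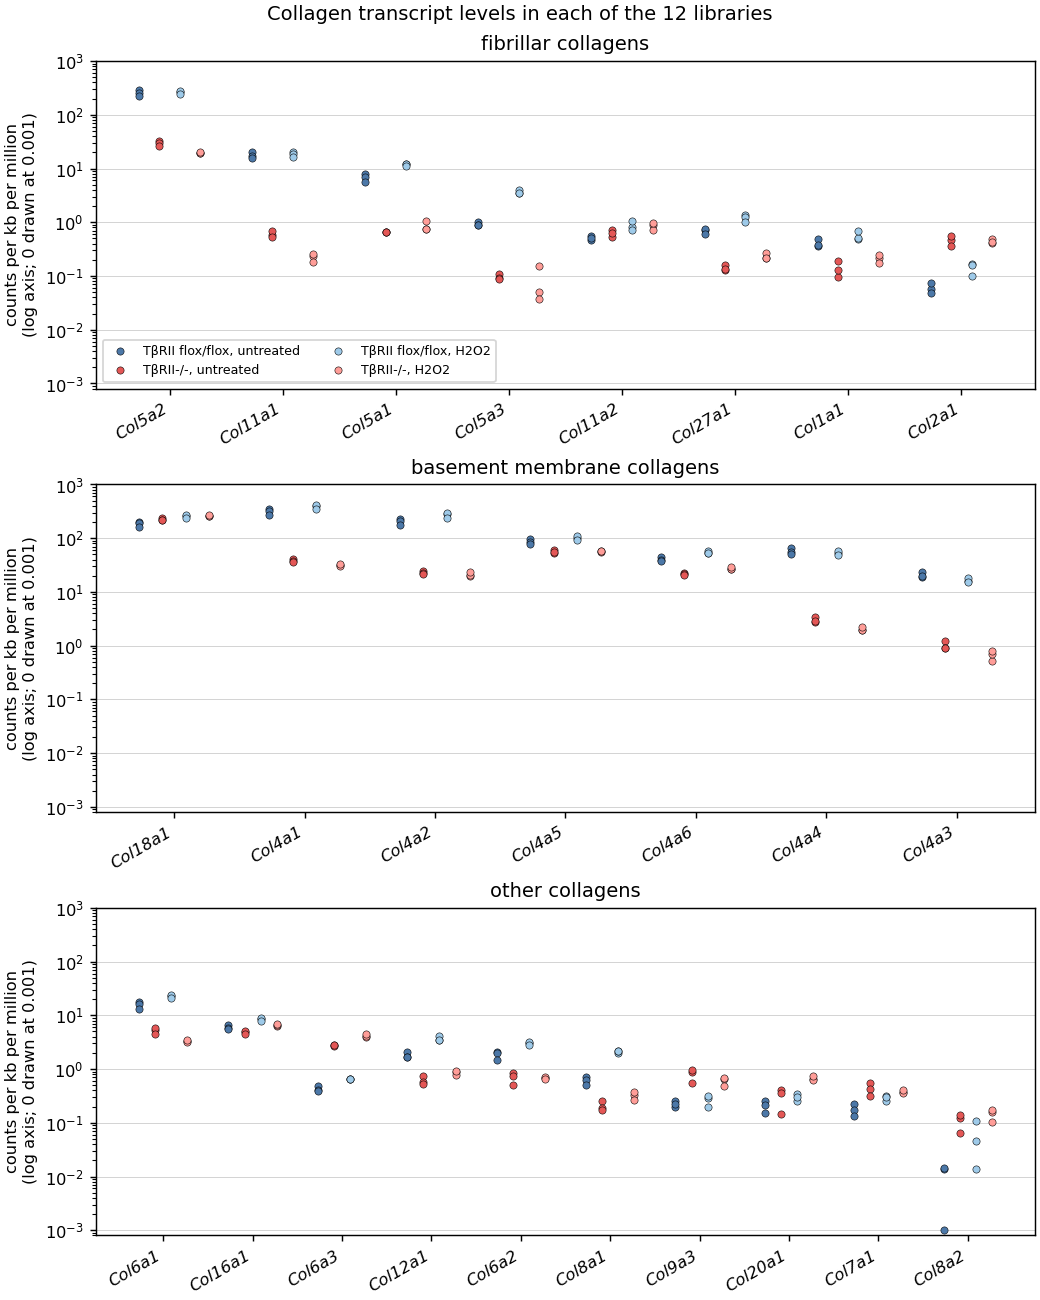
Level of each of the 25 collagen genes tested in each of the 12 libraries, as counts per kb of transcript per 1000000 counts on a log axis. Each point is a library, colours mark the 4 groups, and genes are ordered by mean level within their class. Col18a1 lies at a similar level in all groups, and most other highly expressed collagens lie far lower in both TβRII-/- groups.

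The 19 genes that were not tested had at most 6 counts in any library, and 14 of them had at most 3. They were Col1a2, Col3a1 and Col24a1 among the fibrillar genes, Col15a1 among the basement membrane genes, and 15 of the other genes, including Col10a1, Col13a1, Col14a1 and Col17a1. Col6a6 and Col9a1 had no count in any library. These genes were not detectable, or were barely so, at this depth.

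The first comparison asked how collagen expression differed between untreated TβRII-/- and TβRII flox/flox cells. In TβRII-/- cells 16 collagen genes fell and 5 rose of the 25 tested. With at least 10 counts required in every library, 15 fell and 2 rose. Col2a1 and Col8a2, which were among those that rose, passed the filter on low counts only because of their TβRII-/- libraries. Their rise is therefore not independent of that filter. Col5a3, which fell, passed the filter only because of TβRII flox/flox libraries, so its fall is not independent of the filter either. Across all 12971 genes tested, 28.0% were called (16.3% rose and 11.8% fell). The libraries of the genotypes did not overlap for 23 of the 25 collagen genes, the 21 called among them, and for 65.3% of all genes. A gene was called at an edgeR adjusted p under 0.05 and a fold change of at least 1.5. The median log2 fold change was -1.56 over the collagen genes and 0.01 over all genes. In bulk RNA fewer cells that express a gene and less RNA per cell cannot be told apart. All 6 collagen IV genes fell, 6 of 8 fibrillar genes fell, and the other collagens were divided, with 4 that fell and 4 that rose among 10.

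Collagen IV gave the most abundant of the transcripts that fell. Col4a1 and Col4a2 encode the α1 and α2 chains, which form the network found in nearly all basement membranes. Col4a1 had levels of 343, 317 and 266 in untreated TβRII flox/flox cells and of 41.5, 37.8 and 36.6 in untreated TβRII-/- cells. It fell 7.99-fold (log2 fold change -3.00 ± 0.09 SE; edgeR adjusted p = 3.17e-24). Col4a2 had levels of 225, 205 and 172 against 24.8, 22.5 and 21.9. Its fall was 8.71-fold (log2 fold change -3.12 ± 0.09; edgeR adjusted p = 2.85e-24). The pair thus fell by nearly the same factor, and neither had an overlap between genotypes.

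Col4a3 and Col4a4 encode the α3 and α4 chains, which join α5 in the network of the mature glomerular basement membrane and of some tubules, and whose mutations cause Alport syndrome. Col4a4 had levels of 64.4, 56.4 and 50.3 in TβRII flox/flox cells and of 3.43, 2.81 and 2.92 in TβRII-/- cells. It fell 18.7-fold (log2 fold change -4.22 ± 0.09 SE; edgeR adjusted p = 8.43e-28). Col4a3 had levels of 23.6, 19.2 and 19.5 against 1.23, 0.907 and 0.922. Its fall was 20.5-fold (log2 fold change -4.35 ± 0.11; edgeR adjusted p = 3.73e-26). These were the steepest falls within collagen IV.

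Col4a5 and Col4a6 encode the α5 and α6 chains and lie beside each other on the X chromosome. Col4a5 had levels of 96.1, 85.3 and 77.7 in TβRII flox/flox cells and of 60.3, 53.4 and 55.1 in TβRII-/- cells. Its fall of 1.53-fold was only just past the limit (log2 fold change -0.62 ± 0.07 SE; edgeR adjusted p = 8.64e-09). Without replicate 1 of TβRII flox/flox or replicate 2 of TβRII-/- cells the fall of Col4a5 stayed under the limit, at log2 fold changes of -0.54 and -0.58. Col4a6 had levels of 44.6, 40.0 and 37.5 against 22.6, 21.7 and 20.6, and it fell 1.88-fold (log2 fold change -0.91 ± 0.07; edgeR adjusted p = 8.87e-14). Both genes of this pair therefore stayed far closer to their level in TβRII flox/flox cells than the other collagen IV genes did.

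The basement membrane collagen that was not called was Col18a1, whose C-terminal fragment is endostatin. Its levels were 200.3, 195 and 159 in TβRII flox/flox cells and 240.1, 220.2 and 216 in TβRII-/- cells. The libraries did not overlap, but the difference of 1.22-fold was under the limit (log2 fold change 0.29 ± 0.08 SE; edgeR adjusted p = 0.00156).

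Each pair of collagen IV genes lies head to head, with transcription running outwards from a shared region. By the NCBI gene table of GRCm38.p6, Col4a1 (chr8:11198423-11312889, minus strand) and Col4a2 (chr8:11312805-11449287, plus strand) overlap by 85 bases at their starts. Col4a4 (chr1:82448419-82587034, minus strand) and Col4a3 (chr1:82586921-82722059, plus strand) overlap by 114 bases. Col4a6 (chrX:141165403-141474095) and Col4a5 (chrX:141475370-141689236) are 1274 bases apart. The start regions of the genes that fell together are shown because each pair shares bases. They are RefSeq windows of GRCm38.p6, from 250 bases before to 50 bases after a start, read 5′ to 3′ on the gene's own strand. Col4a1 is chr8:11312777-11313076 (minus strand), Col4a2 is chr8:11312555-11312854 (plus strand) and Col4a4 is chr1:82586800-82587099 (minus strand). Capitals mark the 78 bases that the Col4a1 and Col4a2 windows have in common, on opposite strands, and the 179 bases of the Col4a4 window that lie inside the Col4a3 gene.
Col4a1: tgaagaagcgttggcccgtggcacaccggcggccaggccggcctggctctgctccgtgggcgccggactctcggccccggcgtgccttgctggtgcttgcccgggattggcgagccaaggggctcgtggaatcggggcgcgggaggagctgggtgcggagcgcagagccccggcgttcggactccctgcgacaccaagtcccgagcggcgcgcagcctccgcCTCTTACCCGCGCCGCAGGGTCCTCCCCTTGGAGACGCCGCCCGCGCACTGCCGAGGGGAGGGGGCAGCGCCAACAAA
Col4a2: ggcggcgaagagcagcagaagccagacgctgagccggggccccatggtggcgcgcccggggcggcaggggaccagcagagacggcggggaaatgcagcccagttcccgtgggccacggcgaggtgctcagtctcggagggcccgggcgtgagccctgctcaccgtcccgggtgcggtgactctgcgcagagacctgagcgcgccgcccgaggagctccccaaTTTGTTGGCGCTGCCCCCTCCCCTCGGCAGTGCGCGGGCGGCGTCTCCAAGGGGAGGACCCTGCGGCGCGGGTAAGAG
Col4a4: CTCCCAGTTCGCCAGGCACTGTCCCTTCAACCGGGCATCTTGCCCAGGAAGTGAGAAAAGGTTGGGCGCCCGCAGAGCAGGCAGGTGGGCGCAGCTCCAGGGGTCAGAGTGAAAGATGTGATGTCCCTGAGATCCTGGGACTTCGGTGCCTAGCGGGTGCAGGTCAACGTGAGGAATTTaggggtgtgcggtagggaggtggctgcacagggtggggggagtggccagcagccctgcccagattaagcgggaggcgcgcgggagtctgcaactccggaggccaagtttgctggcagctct
These windows hold 74.0%, 73.7% and 63.3% G and C, against a median of 52.7% over all 32851 windows. Those of Col4a5 and Col4a6, which also fell, hold 52.7% and 48.3%. The windows of Col16a1, which was not called, and of Col8a2, which rose, hold 74.3% and 71.7%. A link between G and C content and the fall was not tested.

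Windows were found for 35 of the 44 collagen genes, 19 of the 25 tested among them, and gave 38 windows with a median of 59.9% G and C. The GC box, searched as GGGCGG on both strands, was in 23 of the 38 collagen windows (60.5%) and in 35.7% of all windows. The letters CCAAT were in 34.2% of collagen windows and 37.4% of all windows, and TATAAA was in 13.2% and 13.6%. These are matches of letters and do not show that a factor binds there.

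Fibrillar collagens showed the largest fall of any collagen and also a gene that rose. Col5a2, the α2 chain of collagen V, a minor partner in collagen I fibrils, was by far the most abundant of them. Col5a2 had levels of 286, 258 and 224 in untreated TβRII flox/flox cells and of 32.7, 30.3 and 26.7 in untreated TβRII-/- cells. It fell 8.56-fold (log2 fold change -3.10 ± 0.09 SE; edgeR adjusted p = 7.54e-25). Col11a1, the α1 chain of collagen XI, known from cartilage fibrils, had levels of 20.01, 17.3 and 15.4 against 0.578, 0.701 and 0.536. Its fall of 29.0-fold was the largest among the 25 genes (log2 fold change -4.86 ± 0.11; edgeR adjusted p = 4.88e-27).

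The remaining collagen V chains fell as steeply as Col5a2. Col5a1, the α1 chain, had levels of 7.93, 6.84 and 5.65 in TβRII flox/flox cells and of 0.664, 0.654 and 0.660 in TβRII-/- cells (log2 fold change -3.37 ± 0.12 SE; edgeR adjusted p = 5.43e-22). Col5a3, the α3 chain, had levels of 1.02, 0.902 and 0.892 against 0.107, 0.0902 and 0.0892 (log2 fold change -3.29 ± 0.25; edgeR adjusted p = 4.72e-13). Collagen V as a whole was thus lower in every TβRII-/- library. Col27a1, collagen XXVII, had levels of 0.717, 0.741 and 0.594 against 0.158, 0.132 and 0.138 (log2 fold change -2.26 ± 0.21; edgeR adjusted p = 7.22e-11). Col1a1 also fell, from 47, 34 and 36 counts to 19, 10 and 14 (log2 fold change -1.56 ± 0.29; edgeR adjusted p = 2.15e-05).

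Col2a1, the collagen of cartilage, was the fibrillar gene that rose. It had 5, 6 and 4 counts in TβRII flox/flox cells and 40, 53 and 34 counts in TβRII-/- cells (log2 fold change 2.93 ± 0.35 SE; edgeR adjusted p = 1.11e-08). The rise began from very few counts, and the level of Col2a1 in TβRII-/- cells, 0.462, 0.567 and 0.360, remained low beside Col5a2. Col11a2, the α2 chain of collagen XI, was not called (log2 fold change 0.29 ± 0.19; edgeR adjusted p = 0.181).

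Among the other collagens the chains of collagen VI, which forms beaded filaments close to basement membranes, moved in opposite directions. Col6a1 had levels of 17.9, 16.5 and 13.0 in untreated TβRII flox/flox cells and of 5.25, 5.85 and 4.59 in untreated TβRII-/- cells (log2 fold change -1.60 ± 0.09 SE; edgeR adjusted p = 5.94e-16). Col6a2 had levels of 2.05, 1.998 and 1.46 against 0.848, 0.748 and 0.508 (log2 fold change -1.39 ± 0.15; edgeR adjusted p = 1.88e-09). Col6a3, the large α3 chain, had levels of 0.493, 0.401 and 0.388 against 2.85, 2.67 and 2.83. It rose 6.49-fold (log2 fold change 2.70 ± 0.11; edgeR adjusted p = 3.69e-20). All 3 TβRII-/- libraries thus lay below the TβRII flox/flox libraries for Col6a1 and Col6a2 and above them for Col6a3.

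Col12a1, a collagen that associates with the surface of fibrils, had levels of 2.11, 1.65 and 1.70 in TβRII flox/flox cells and of 0.743, 0.584 and 0.517 in TβRII-/- cells (log2 fold change -1.57 ± 0.12 SE; edgeR adjusted p = 5.69e-13). Collagen VIII is a short-chain network collagen. Its gene Col8a2 passed the filter on low counts only because of TβRII-/- libraries, so no divergence of the collagen VIII chains is read from the values. Col8a1 had levels of 0.700, 0.615 and 0.497 against 0.260, 0.186 and 0.173 (log2 fold change -1.56 ± 0.24; edgeR adjusted p = 9.80e-07). Col8a2 had 1, 1 and 0 counts in TβRII flox/flox cells and 9, 5 and 11 counts in TβRII-/- cells (edgeR adjusted p = 0.00122). Relative to library size, the 25 counts of Col8a2 in TβRII-/- cells were 11.5 times the 2 counts in TβRII flox/flox cells, with an exact 95% interval from 2.86 to 99.7 that covers counting error only.

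Col7a1, the anchoring fibril collagen, and Col9a3, a collagen IX chain, also rose, with log2 fold changes of 1.28 ± 0.23 SE and 1.81 ± 0.31 (edgeR adjusted p = 1.35e-05 and 5.48e-06). Col16a1 had levels of 6.63, 5.72 and 5.48 in TβRII flox/flox cells and of 4.90, 5.13 and 4.56 in TβRII-/- cells, and was not called (log2 fold change -0.29 ± 0.08; edgeR adjusted p = 0.00266). Col20a1 was not called either (log2 fold change 0.54 ± 0.32; edgeR adjusted p = 0.139).

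**Figure D2:**
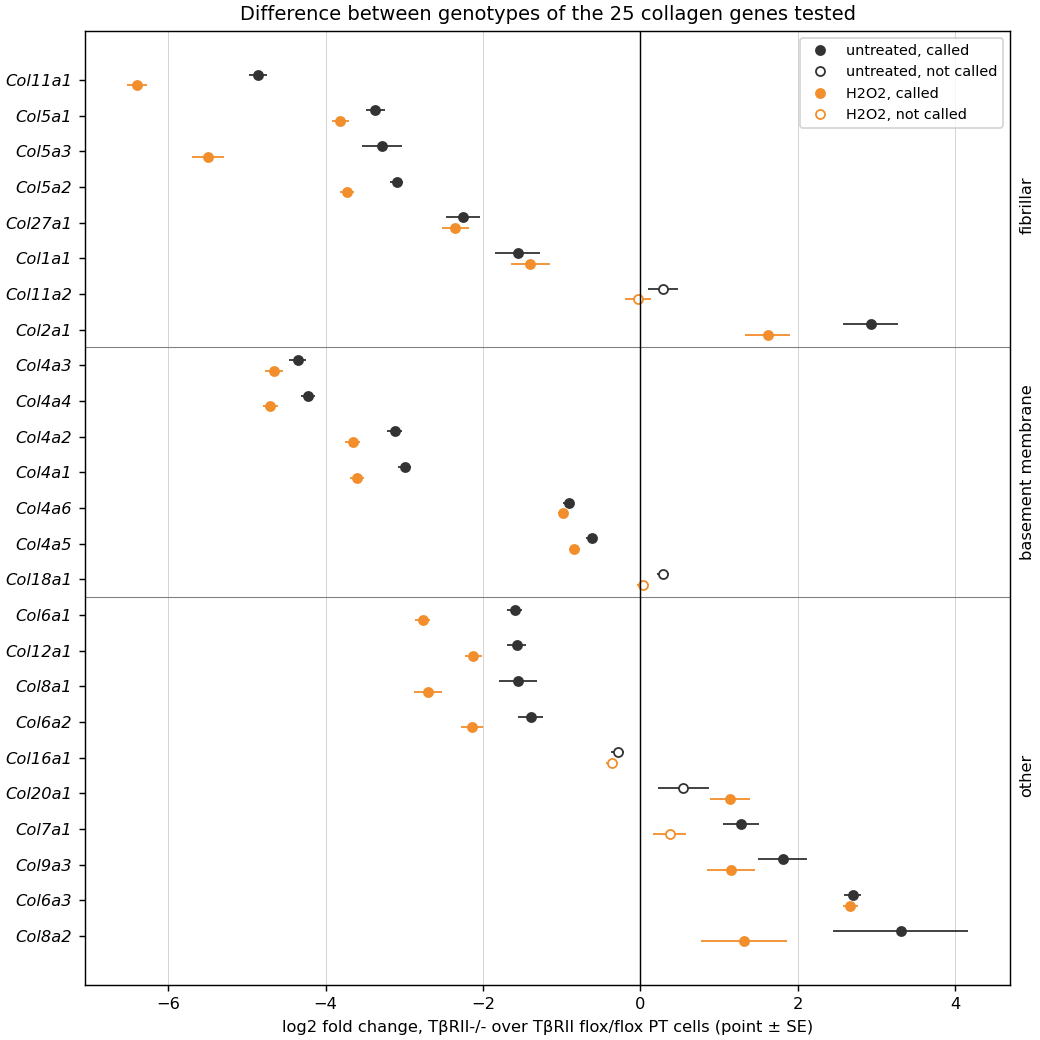
Log2 fold change of TβRII-/- over TβRII flox/flox cells for the 25 collagen genes tested, untreated (black) and with H2O2 (orange). Points are estimates of edgeR with their SE, filled where called and open where not, grouped by class. Untreated, Col11a1 lies farthest to the left at -4.86, and Col2a1, Col6a3 and Col8a2 are the genes farthest to the right.

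In the summed levels of the classes the fibrillar collagens fell by the largest factor. By gene the order was the reverse: the median log2 fold change between untreated genotypes was -2.68 over the fibrillar and -3.00 over the basement membrane genes tested. All collagens together had summed levels of 1344, 1230 and 1052 in untreated TβRII flox/flox cells and of 446, 409.6 and 398 in untreated TβRII-/- cells. Fibrillar collagens had summed levels of 317, 284 and 247 against 35.4, 33.2 and 29.3, and the mean was 8.66-fold lower. Their share of collagen mRNA per kb was between 23.1% and 23.6% in TβRII flox/flox cells and between 7.37% and 8.11% in TβRII-/- cells. Basement membrane collagens had summed levels of 996, 918 and 782 against 394, 359 and 354, which was 2.43-fold lower in the mean. The other collagens had summed levels of 30.6, 27.5 and 23.1 against 16.7, 17.1 and 14.6. A class sum is carried by its most abundant genes, Col5a2 for the fibrillar class, and Col18a1 with the collagen IV genes for the basement membrane class.

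**Figure D3:**
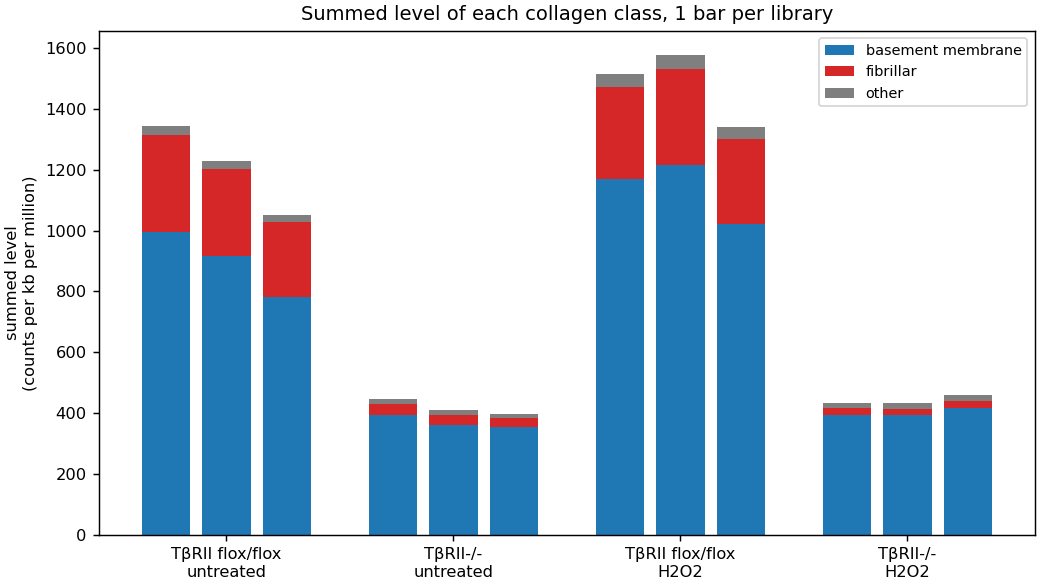
Summed level of the collagen classes in each of the 12 libraries, as counts per kb of transcript per 1000000 counts, with 1 bar per library and the classes stacked. The TβRII flox/flox bars lie between 1052 and 1577 and the TβRII-/- bars between 398 and 459, and the fibrillar part shrinks by the largest factor, 8.66-fold between untreated genotypes.

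The same genotypes were compared after H2O2. In TβRII-/- cells 16 collagen genes again fell and 5 rose of 25, where 30.7% of all genes were called (17.3% rose and 13.4% fell). With at least 10 counts required in every library, 15 collagen genes fell and 2 rose. The libraries did not overlap for 22 of the 25 collagen genes, against 71.0% of all genes, and of the 21 called genes Col8a2 was the one with an overlap. The median log2 fold change over the collagen genes was -2.12 and that over all genes 0.02. By class, 6 of 8 fibrillar genes and 6 of 7 basement membrane genes fell, and the other collagens were again divided into 4 that fell and 4 that rose. Col20a1 rose here (log2 fold change 1.14 ± 0.26 SE; edgeR adjusted p = 0.000260), and Col7a1 was not called (log2 fold change 0.37 ± 0.21; edgeR adjusted p = 0.120).

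Col11a1 had levels of 20.3, 18.9 and 16.5 in TβRII flox/flox cells with H2O2 and of 0.234, 0.182 and 0.252 in TβRII-/- cells with H2O2. It was 84.2-fold lower (log2 fold change -6.39 ± 0.13 SE; edgeR adjusted p = 1.67e-28). Col5a3 had levels of 3.50, 4.07 and 3.48 against 0.155, 0.0513 and 0.0371 and was 45.2-fold lower, although 2 of the 3 TβRII-/- libraries held under 10 counts of it (log2 fold change -5.50 ± 0.21; edgeR adjusted p = 2.62e-21). These were the widest gaps between genotypes with H2O2. That of Col5a3 is not independent of the filter on low counts, which it passed only because of TβRII flox/flox libraries. Col5a2 had levels of 266, 278 and 245 against 19.6, 19.2 and 20.7 (log2 fold change -3.73 ± 0.09; edgeR adjusted p = 1.19e-26). Col5a1 had levels of 12.2, 12.3 and 11.0 against 0.743, 0.746 and 1.06 (log2 fold change -3.81 ± 0.11; edgeR adjusted p = 1.83e-24). Col27a1 had levels of 1.36, 1.27 and 1.02 against 0.217, 0.274 and 0.218 (log2 fold change -2.35 ± 0.17; edgeR adjusted p = 1.77e-13). In each of these fibrillar genes the groups lay apart.

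Col4a1 had levels of 400.1, 416 and 345 in TβRII flox/flox cells with H2O2 and of 31.5, 30.7 and 33.6 in TβRII-/- cells with H2O2 (log2 fold change -3.60 ± 0.09 SE; edgeR adjusted p = 4.56e-26). Col4a2 had levels of 287, 289 and 237 against 20.2, 21.0 and 23.3 (log2 fold change -3.66 ± 0.09; edgeR adjusted p = 6.81e-26). The pair again fell by nearly the same factor. Col4a4 had levels of 52.5, 56.8 and 48.1 against 1.93, 1.93 and 2.19 (log2 fold change -4.70 ± 0.09; edgeR adjusted p = 1.47e-28). Col4a3 had levels of 15.9, 18.6 and 15.6 against 0.510, 0.689 and 0.790 (log2 fold change -4.65 ± 0.11; edgeR adjusted p = 2.71e-26). Col4a5 and Col4a6 fell by the least within collagen IV, with log2 fold changes of -0.84 ± 0.07 and -0.98 ± 0.06 (edgeR adjusted p = 9.68e-12 and 8.48e-15). Col18a1 had levels of 259, 269.9 and 233 against 257, 254 and 270.1, and the genotypes overlapped (log2 fold change 0.04 ± 0.08; edgeR adjusted p = 0.703).

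Col6a1 had levels of 22.4, 24.2 and 20.7 in TβRII flox/flox cells with H2O2 and of 3.28, 3.21 and 3.42 in TβRII-/- cells with H2O2 (log2 fold change -2.77 ± 0.10 SE; edgeR adjusted p = 5.40e-22). Col6a2 had levels of 3.06, 3.21 and 2.80 against 0.686, 0.706 and 0.662 (log2 fold change -2.14 ± 0.14; edgeR adjusted p = 1.09e-14). Col6a3 had levels of 0.655, 0.667 and 0.645 against 3.87, 4.13 and 4.54 (log2 fold change 2.67 ± 0.10; edgeR adjusted p = 1.71e-21). The opposite directions of the collagen VI chains were thus present with H2O2 as well. Col12a1 had levels of 3.45, 4.16 and 3.51 against 0.867, 0.780 and 0.914 (log2 fold change -2.12 ± 0.11; edgeR adjusted p = 6.96e-18). Col8a1 had levels of 1.99, 2.19 and 2.13 against 0.333, 0.266 and 0.381 (log2 fold change -2.70 ± 0.18; edgeR adjusted p = 6.34e-15). Col2a1 was higher in TβRII-/- cells in every library (log2 fold change 1.62 ± 0.29; edgeR adjusted p = 1.09e-05). Col8a2, with 8, 1 and 3 counts in TβRII flox/flox and 13, 10 and 13 in TβRII-/- cells, had an edgeR adjusted p of 0.0345 that rose as high as 0.209 when 1 library was left out.

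The next comparison was between H2O2 and untreated cells of each genotype. It shares its libraries with the comparisons of genotypes, so the results are not independent of those above. In TβRII flox/flox cells 10 collagen genes rose and none fell of the 25 tested, against 8.24% of all genes called (5.68% rose and 2.56% fell). At an edgeR adjusted p under 0.05 with no fold limit, 17 rose and 1, Col4a3, fell. The share of all genes under that rule was not computed. The genes that rose were 5 fibrillar and 5 other collagens, and no basement membrane collagen was among them. The median log2 fold change was 0.51 over the collagen genes and 0.01 over all genes. In 21 of the 25 genes replicate 1 of the untreated TβRII flox/flox cells had the highest level of that group, and in 19 replicate 3 had the lowest. Without replicate 3 the count was 6.

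Col5a3 rose most, from levels of 1.02, 0.902 and 0.892 to levels of 3.50, 4.07 and 3.48, which was 3.92-fold (log2 fold change 1.97 ± 0.14 SE; edgeR adjusted p = 4.70e-13). Col8a1 rose 3.47-fold, from 0.700, 0.615 and 0.497 to 1.99, 2.19 and 2.13 in level (log2 fold change 1.80 ± 0.16; edgeR adjusted p = 1.87e-10). Col12a1 rose 2.04-fold (log2 fold change 1.03 ± 0.10; edgeR adjusted p = 6.65e-10). In these genes every library with H2O2 lay above every untreated library. Col27a1, Col5a1 and Col11a2 rose with log2 fold changes of 0.83 ± 0.15, 0.80 ± 0.09 and 0.78 ± 0.18. Col6a2, Col7a1 and Col6a3 rose with log2 fold changes of 0.72 ± 0.13, 0.71 ± 0.25 and 0.62 ± 0.14, and Col2a1 with one of 1.26 ± 0.45. The calls of Col2a1, Col7a1, Col6a2 and Col6a3 were lost when certain single libraries were left out.

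The abundant collagens of TβRII flox/flox cells moved little with H2O2. Col5a2 had a log2 fold change of 0.04 ± 0.08 SE (edgeR adjusted p = 0.711), and Col11a1 one of 0.08 ± 0.08 (edgeR adjusted p = 0.410). Within collagen IV, Col4a1, Col4a2, Col4a5 and Col4a6 had log2 fold changes between 0.22 and 0.43. Col4a3 and Col4a4 had log2 fold changes of -0.32 ± 0.08 and -0.12 ± 0.08 (edgeR adjusted p = 0.00226 and 0.208). Col18a1 and Col16a1 had log2 fold changes of 0.46 ± 0.08 and 0.51 ± 0.08.

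In TβRII-/- cells H2O2 went with 4 collagen genes that rose and 5 that fell, against 8.33% of all genes called (4.56% rose and 3.76% fell). The median log2 fold change over the collagen genes was 0.00 to the second decimal, and that over all genes was 0.02. Col11a1 fell 2.74-fold, from levels of 0.578, 0.701 and 0.536 to levels of 0.234, 0.182 and 0.252 (log2 fold change -1.46 ± 0.21 SE; edgeR adjusted p = 1.11e-06). Col6a1 fell 1.58-fold, from 5.25, 5.85 and 4.59 to 3.28, 3.21 and 3.42 in level (log2 fold change -0.66 ± 0.11; edgeR adjusted p = 1.14e-05). Col5a2 fell 1.51-fold, from 32.7, 30.3 and 26.7 to 19.6, 19.2 and 20.7 (log2 fold change -0.59 ± 0.08; edgeR adjusted p = 8.33e-07). The other genes that fell were Col4a3 and Col4a4, with log2 fold changes of -0.62 ± 0.15 and -0.60 ± 0.10.

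Col20a1, which associates with fibrils, rose in TβRII-/- cells with a log2 fold change of 1.14 ± 0.25 SE (edgeR adjusted p = 0.000622). Col27a1, Col8a1 and Col6a3 rose with log2 fold changes of 0.74 ± 0.25, 0.66 ± 0.26 and 0.59 ± 0.08. The calls of Col5a2, Col6a1, Col27a1, Col6a3, Col4a4, Col8a1 and Col4a3 were lost under at least 1 of the alternatives tried, and the count was 4 without replicate 2 of the untreated cells and 5 without replicate 1 of the cells with H2O2.

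**Figure D4:**
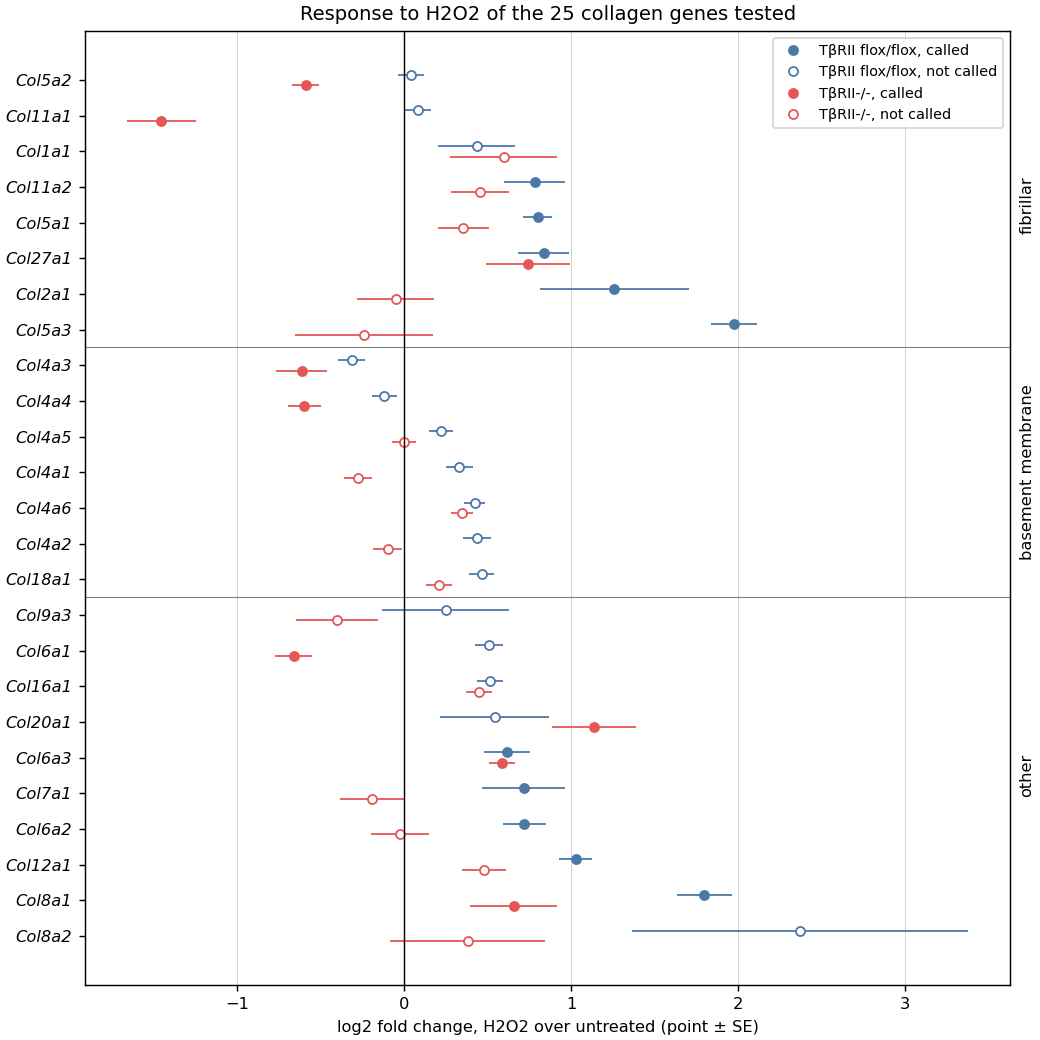
Log2 fold change of H2O2 over untreated cells for the 25 collagen genes tested, in TβRII flox/flox (blue) and TβRII-/- cells (red). Points are estimates of edgeR with their SE, filled where called and open where not, grouped by class. Most blue points lie to the right of 0, and for Col6a1, Col5a2 and Col11a1 the red point lies to the left of 0 while the blue one does not.

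The difference between the H2O2 effects of the genotypes was tested as an interaction. It had an edgeR adjusted p under 0.05 for 10 collagen genes of 25, and in all 10 the effect was lower in TβRII-/- than in TβRII flox/flox cells. Across all genes 10.2% were called, 3.90% with a higher and 6.28% with a lower effect. The 10 genes were 3 fibrillar, 3 basement membrane and 4 other collagens. Without replicate 1 of the untreated TβRII-/- cells the count was 6.

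Col6a1 had the smallest p of them: its log2 fold change with H2O2 was 0.51 ± 0.08 SE in TβRII flox/flox and -0.66 ± 0.11 in TβRII-/- cells, and the difference was -1.17 ± 0.14 (edgeR adjusted p = 6.06e-07). Col5a3 differed most, by -2.21 ± 0.45 (edgeR adjusted p = 0.00144), with log2 fold changes of 1.97 ± 0.14 and -0.24 ± 0.41. It had only 11, 10 and 10 counts in untreated TβRII-/- libraries and 18, 7 and 4 with H2O2. Col5a3 passed the filter on low counts only because of TβRII flox/flox libraries, so its difference is not independent of that filter. Col11a1 differed by -1.54 ± 0.22 (edgeR adjusted p = 1.29e-05), with 0.08 ± 0.08 and -1.46 ± 0.21. Col5a2 differed by -0.63 ± 0.11 (edgeR adjusted p = 0.000334), with 0.04 ± 0.08 and -0.59 ± 0.08. For Col5a3 a rise in TβRII flox/flox cells was thus not seen in the few counts of TβRII-/- cells. For Col11a1 and Col5a2 a fall in TβRII-/- cells was not seen in TβRII flox/flox cells.

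Within collagen IV the difference between H2O2 effects was -0.60 ± 0.12 SE for Col4a1 (edgeR adjusted p = 0.000769), -0.53 ± 0.12 for Col4a2 (0.00377) and -0.48 ± 0.12 for Col4a4 (0.0114). Both Col4a1 and Col4a2 had positive log2 fold changes in TβRII flox/flox cells, 0.33 ± 0.08 and 0.43 ± 0.08, and negative ones in TβRII-/- cells, -0.28 ± 0.08 and -0.10 ± 0.09. Among the other collagens the difference was -1.14 ± 0.32 for Col8a1 (edgeR adjusted p = 0.0187), -0.74 ± 0.22 for Col6a2 (0.0239) and -0.55 ± 0.17 for Col12a1 (0.0297). The calls of Col6a2, Col12a1, Col4a4 and Col8a1 were lost when certain single libraries were left out, with edgeR adjusted p up to 0.115, 0.164, 0.0568 and 0.111.

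Chains of the same protein were set against each other by the ratio of their levels per kb. Col4a1 to Col4a2 was 1.54 ± 0.0126 (SD, n = 3) in untreated TβRII flox/flox and 1.68 ± 0.00558 in untreated TβRII-/- cells, and 1.43 ± 0.0296 and 1.49 ± 0.0635 with H2O2. Col4a3 to Col4a4 was 0.365 ± 0.0240 and 0.332 ± 0.0226 untreated, and 0.318 ± 0.0134 and 0.327 ± 0.0545 with H2O2. The Col4a1 to Col4a2 ratio lay higher in every untreated TβRII-/- library than in any untreated TβRII flox/flox library, yet both ratios moved far less than the levels of the genes did. Ratios are given as a description, and their differences were not tested. Col4a5 to Col4a6 was 2.12 ± 0.0417 and 2.60 ± 0.124 untreated, and 1.84 ± 0.118 and 2.04 ± 0.116 with H2O2. In this ratio too the untreated TβRII-/- libraries lay higher, at 2.67, 2.46 and 2.68 against 2.15, 2.13 and 2.07.

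Col5a1 to Col5a2 was 0.0265 ± 0.00125 in untreated TβRII flox/flox and 0.0222 ± 0.00225 in untreated TβRII-/- cells, and 0.0450 ± 0.000895 and 0.0426 ± 0.00741 with H2O2. For this pair the genotypes did not overlap untreated, but did with H2O2. Col6a1 to Col6a2 was 8.63 ± 0.320 and 7.68 ± 1.43 untreated, and 7.42 ± 0.0987 and 4.83 ± 0.318 with H2O2. In contrast, Col6a3 to Col6a1 was 0.0275, 0.0243 and 0.0298 in the untreated TβRII flox/flox libraries and 0.544, 0.455 and 0.618 in the untreated TβRII-/- libraries. With H2O2 it was 0.0292, 0.0276 and 0.0312 against 1.18, 1.29 and 1.32. The α3 chain of collagen VI was thus a minor transcript beside α1 in TβRII flox/flox cells and the more abundant of the pair in TβRII-/- cells with H2O2. Col8a1 to Col8a2 was 2.09, 2.90 and 1.24 in the untreated TβRII-/- libraries, while in untreated TβRII flox/flox cells it was 50.3 and 41.8 in replicates 1 and 2 and could not be formed in replicate 3, which had no count of Col8a2. With H2O2 it was 18.6, 160.4 and 46.9 in the TβRII flox/flox libraries against 2.10, 2.56 and 2.23. The libraries of the genotypes lay apart, but each value rests on at most 13 counts of Col8a2. That gene passed the filter on low counts only because of TβRII-/- libraries, so the ratio does not show that the chains diverged. No ratio was formed for collagen I, since Col1a2 was not tested.

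**Figure D5:**
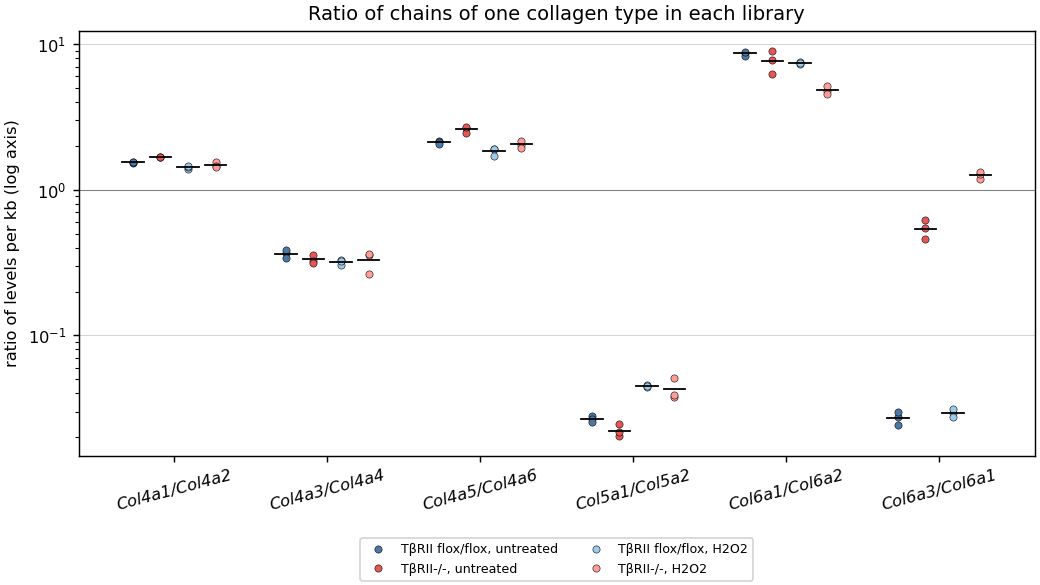
Ratio of the levels per kb of chains of one collagen type in each library, on a log axis, with black bars at the group means (n = 3). Points are libraries and colours mark the 4 groups. Ratios within collagen IV and collagen V differ far less between genotypes than Col6a3 to Col6a1 does. The latter lies near 0.03 in TβRII flox/flox cells and between 0.455 and 1.32 in TβRII-/- cells.

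Other transcripts of the same genes and genes nearby were examined for the same pattern. Leaving out the representative transcripts, 50 transcripts of 18 of the collagen genes called between untreated genotypes had a mean of at least 20 counts in a group, and all 50 had a log2 ratio of the same sign as the representative one. Transcripts of a gene share reads, so these are not independent of each other. For each collagen gene the 12 tested genes on either side, collagen genes left out, had a median log2 fold change between -0.24 and 0.32. The gene with the largest fall, Col11a1, had neighbours with a median of -0.24, and the neighbours of Col4a3 and Col4a4 had a median of -0.09. Single neighbours of Col4a3 and Col4a4 ranged from -4.69 to 10.11, so at least 1 of them was as low as these genes, and those of Col11a1 ranged from -1.40 to 4.12. Among the other genes that fell, Col1a1, Col4a5, Col4a6, Col5a1, Col5a3, Col6a2, Col8a1 and Col27a1 also had at least 1 neighbour as low as themselves. Col4a1, Col4a2, Col5a2, Col6a1 and Col12a1, like Col11a1, had none.

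A list of 51 genes that fold, modify, secrete, cut, crosslink, bind or degrade collagen was read beside the collagens. Of the 43 that were tested, 27 fell and 5 rose in untreated TβRII-/- cells, with a median log2 fold change of -0.92, where 11.8% of all genes fell and 16.3% rose. With H2O2 28 fell and 5 rose, with a median of -1.11, against 13.4% and 17.3% of all genes. In response to H2O2, 3 rose and 5 fell in TβRII flox/flox cells (5.68% and 2.56% of all genes), and 3 rose and 3 fell in TβRII-/- cells (4.56% and 3.76%). The interaction was called for 5 of the 43, a share close to the 10.2% of all genes.

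Between untreated genotypes, genes for folding and modification in the endoplasmic reticulum fell in 11 of 18 tested and rose in 2, where 28.0% of all genes were called. The genes for crosslinking enzymes were called in 6 of 6, of which 4 fell and 2 rose. Of 5 genes for propeptide processing 3 fell and 1 rose, of 7 receptors 4 fell, of 4 secretion genes 2 fell, and all 3 proteases that were tested fell. The proteases were Mmp2, Mmp9 and Mmp14, with log2 fold changes of -4.12, -3.81 and -1.48.

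Lox, lysyl oxidase, which crosslinks collagen and elastin, fell most of these genes. It had 13195, 12400 and 11193 normalized counts in untreated TβRII flox/flox cells and 137, 124 and 97.6 in untreated TβRII-/- cells (log2 fold change -6.68 ± 0.10 SE; edgeR adjusted p = 3.2e-32). Mrc2, an endocytic collagen receptor, had 574, 522 and 420 counts against 9, 12 and 9 (log2 fold change -5.77 ± 0.17; edgeR adjusted p = 6.3e-24). Loxl2, a relative of Lox that acts on collagen IV, rose from 4, 3 and 8 counts to 316, 356 and 298 (log2 fold change 5.86 ± 0.26; edgeR adjusted p = 1.9e-19). Adamts2, which removes the N-terminal propeptide of fibrillar procollagens, had 3, 3 and 1 counts against 151, 154 and 127. Its summed counts were 56.5 times higher in TβRII-/- cells, with an exact 95% interval from 27.2 to 141 for counting error (edgeR adjusted p = 1.7e-17). Loxl2 and Adamts2, among the 5 genes of the list that rose, passed the filter on low counts only because of TβRII-/- libraries. Their rises are therefore not independent of that filter. Within the lysyl oxidase family Lox, Loxl1 and Loxl3 fell, whereas Loxl2 and Loxl4 rose.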

How the data were processed

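Per the labels and the study's methods, mRNA libraries were stranded, adapters were removed with fastp, reads were aligned with STAR to GRCm38.p6 (GENCODE M23) and counted with featureCounts, and versions of these tools are not given in the sources used here. The deposited values are raw counts, as whole numbers. The design of the tests had assumed counts per gene; the authors deposited them per transcript, where a read over several transcripts adds to each. The labels give the H2O2 dose as 200 mM and the methods give it in μM.

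Of 106332 transcripts 104820 were matched by identifier to genes, and 1512 with 1.22% to 1.28% of the counts were left out. Each gene was represented by its transcript with most counts in all 12 libraries. Coordinates were matched by symbol to an NCBI gene table of GRCm38.p6. The sources do not say whether counting used the strand, so reads in bases shared by head-to-head genes, or by near-identical copies, are uncertain.

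Counts were analysed with edgeR 4.0.16 in R 4.3.3 (TMM, filterByExpr, glmQLFit and glmQLFTest on a mean per group), with Benjamini-Hochberg adjustment over all 12971 genes tested. Genes were called at an adjusted p under 0.05 and a fold change of 1.5, and the interaction at an adjusted p under 0.05. Levels and their limits cover counting error and the spread of 3 libraries only. The collagen genes, the lists and the alternatives were chosen with earlier results of these data known. Values in each library are given for the 3 most abundant genes of a class, genes called between genotypes with a log2 fold change of 2 or more either way, genes with a called interaction, and chains set in a ratio, and of the pathway genes the 2 that rose most and the 2 that fell most are named. Other collagen genes were named after their values were seen. Replicate pairs had a chi-square per gene between 3.52 and 12.1, more than sampling noise gives. The authors' own comparisons were not used here. Tables were joined with Python 3.11.15 and pandas 2.3.3, and drawn with matplotlib 3.10.9.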

Additional observations from a re-analysis of the deposited data

Results flagged for a closer look

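For 10 of the 25 collagen genes tested the response to H2O2 differed between TβRII-/- and TβRII flox/flox cells by a test of the difference itself (the interaction in edgeR, adjusted p under 0.05 over all genes tested), and in each it was lower in TβRII-/- cells. Of all genes tested 10.2% were called, 6.28% with a lower effect. On the log2 scale the difference was -2.21 for Col5a3, -1.54 for Col11a1 and -0.63 for Col5a2 among the fibrillar genes. Col5a3 passed the filter on low counts only because of TβRII flox/flox libraries. Among the collagen IV genes it was -0.60 for Col4a1, -0.53 for Col4a2 and -0.48 for Col4a4. Among the other collagens it was -1.17 for Col6a1, -1.14 for Col8a1, -0.74 for Col6a2 and -0.55 for Col12a1. The calls of Col6a2, Col12a1, Col4a4 and Col8a1 were lost when certain single libraries were left out. Serum-free medium went with H2O2 in both genotypes, and its part cannot be told apart.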

How the results depend on the processing

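Counts of collagen genes called were within 1.5 times the reported count with DESeq2's size factors, with DESeq2 1.42.0, without a filter, with at least 10 counts in every library and on sums over transcripts, and, for the 4 pairwise comparisons, with only the groups compared and at an unadjusted p of 0.01. With no fold limit they were 18 in place of 10 for H2O2 in TβRII flox/flox cells and 15 in place of 9 in TβRII-/- cells, as follows from the rule. With 1 library left out, they ranged from 20 to 22 between untreated genotypes, from 20 to 21 between genotypes with H2O2, from 6 to 11 for H2O2 in TβRII flox/flox cells, from 4 to 7 in TβRII-/- cells, and from 6 to 14 for the interaction. The fewest came without untreated TβRII flox/flox replicate 3 (6), untreated TβRII-/- replicate 2 (4), TβRII-/- replicate 1 with H2O2 (5) and untreated TβRII-/- replicate 1 (6, interaction). On sums over transcripts the summed level in untreated TβRII-/- over TβRII flox/flox cells was 0.448 in place of 0.346 for all collagens, 0.504 in place of 0.411 for basement membrane and 0.787 in place of 0.596 for other collagens; the cause was not tested. No called collagen gene changed direction under any of these alternatives. Samples with the same replicate number did not deviate together (correlations between -0.102 and 0.0587), and with the replicate block the counts were 21, 21, 10, 8 and 10, the call of Col8a1 with H2O2 in TβRII-/- cells being lost (adjusted p = 0.0529). Genes with few counts, such as Col8a2 and Col2a1, are limited by depth.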
